A study of Mus musculus with 8 samples.

Results

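Strong Flag-HoxB4 regions were stretches of promoter DNA at which chromatin pulled down through Flag-tagged HoxB4 exceeded input chromatin at least 4-fold, as the median of 3 neighbouring array probes. They were selected on the measured signal. A window was the median log2 ratio, Flag-IP over input, over 3 adjacent probes, each starting no more than 1000 bp after the one before. Windows at 2 or more were kept and merged where they overlapped or adjoined. Of 425939 windows, 1053 passed, or 0.247%. They formed 465 regions, and the array annotation tied these to 526 of the 16655 genes with a window, or 3.16%. Heights below therefore describe the regions that the threshold picked, and support nothing about the threshold itself.

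The chromatin came from hematopoietic progenitors grown from the mouse embryonic stem cell line B6N-22UTR. Embryoid bodies were formed for 6 days, the c-Kit+CD41+ precursors were put on OP9 stromal cells, and a retrovirus delivered HoxB4 carrying 3 copies of the Flag tag. On day 12 of coculture, c-Kit+ cells were isolated on magnetic beads to a stated purity of over 95%. Flag-IP DNA (Cy5) and input DNA (Cy3) of the same kind of cells were amplified with T7 RNA polymerase and hybridised together. Both channels therefore came from cells that overexpressed HoxB4, and no Flag pulldown from cells without the tag was analysed here. The series also holds expression arrays of cells labelled MigR1, HoxB4 and iHoxB4, which were not used here because no table pairing their probe sets with genes was given. Each region was measured on 1 of 2 arrays with different probe sets, so there was no replicate and no test. The cell type could not be checked against its markers from ChIP signal. The spread given below is that between neighbouring probes, which measure different DNA.

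HoxB4 is a homeobox transcription factor that expands blood stem and progenitor cells when it is overexpressed. Its homeodomain contacts short sequences with a TAAT core, and with Pbx and Meis partners Hox proteins read longer composite sites. Many promoters rich in CpG carry a CCAAT box, which is bound by the trimeric factor NF-Y. In ChIP-chip, the ratio of pulldown to input at a probe reflects how often the protein was crosslinked to that DNA, directly or through partners.

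Among the 20 highest regions, 9 genes at 8 regions had a single RefSeq promoter and a summit, meaning the middle probe of the highest window, between 250 bp before and 50 bp after the gene start. Promoters of 5 of them are shown because they range from several CCAAT boxes to none. They were matched by gene symbol, and the array probes were not placed on them. Capitals mark CCAAT and TAAT on either strand, so that ATTGG and ATTA are their reverse complements. The sequences are RefSeq promoters of GRCm38.p6, written 5′ to 3′ on the strand of the gene. They lie at chrX:12587509-12587808 (plus strand) for Atp6ap2, chr8:105708159-105708458 (minus strand) for Enkd1, chr13:4609115-4609414 (minus strand) for Akr1e1, chr10:127121111-127121410 (minus strand) for Os9 and chr6:57535438-57535737 (minus strand) for Ppm1k.
Atp6ap2: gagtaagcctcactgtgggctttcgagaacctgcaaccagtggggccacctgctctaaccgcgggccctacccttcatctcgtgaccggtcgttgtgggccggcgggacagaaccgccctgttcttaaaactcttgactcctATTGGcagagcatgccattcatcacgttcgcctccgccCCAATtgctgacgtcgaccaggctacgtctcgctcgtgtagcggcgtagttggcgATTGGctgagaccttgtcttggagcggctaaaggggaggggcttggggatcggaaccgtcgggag
Enkd1: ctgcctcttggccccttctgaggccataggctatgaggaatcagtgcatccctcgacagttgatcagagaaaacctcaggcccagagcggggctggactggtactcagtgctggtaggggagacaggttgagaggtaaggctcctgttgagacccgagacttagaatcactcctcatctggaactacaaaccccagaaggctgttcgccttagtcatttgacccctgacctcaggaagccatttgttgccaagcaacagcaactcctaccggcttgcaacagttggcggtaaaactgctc
Akr1e1: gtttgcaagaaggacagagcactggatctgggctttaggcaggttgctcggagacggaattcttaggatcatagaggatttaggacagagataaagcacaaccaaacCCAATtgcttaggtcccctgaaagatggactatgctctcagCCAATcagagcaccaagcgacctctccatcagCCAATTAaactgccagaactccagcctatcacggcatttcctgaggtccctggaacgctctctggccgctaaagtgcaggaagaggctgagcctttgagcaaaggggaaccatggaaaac
Os9: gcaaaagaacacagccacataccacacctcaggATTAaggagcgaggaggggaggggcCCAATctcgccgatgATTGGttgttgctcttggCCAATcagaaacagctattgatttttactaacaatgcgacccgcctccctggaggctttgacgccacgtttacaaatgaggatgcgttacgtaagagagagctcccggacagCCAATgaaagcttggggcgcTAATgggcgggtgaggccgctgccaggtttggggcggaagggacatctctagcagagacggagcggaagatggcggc
Ppm1k: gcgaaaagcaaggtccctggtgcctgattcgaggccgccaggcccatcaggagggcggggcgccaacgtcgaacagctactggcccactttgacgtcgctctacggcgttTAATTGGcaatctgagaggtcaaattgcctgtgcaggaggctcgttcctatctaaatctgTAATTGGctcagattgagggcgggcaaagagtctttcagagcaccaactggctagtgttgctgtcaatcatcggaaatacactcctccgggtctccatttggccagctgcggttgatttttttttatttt
The promoter of Atp6ap2 held 3 CCAAT boxes and no TAAT, and that of Os9 held 4 CCAAT boxes and 2 TAAT. In Akr1e1 there were 3 CCAAT boxes and 1 TAAT, the last of them fused into a single stretch. In Ppm1k both of the 2 TAAT words ran into a reverse CCAAT box, as TAATTGG. The Enkd1 promoter held neither word and was poor in CpG, with an observed to expected CpG ratio of 0.275 against 0.88 in Atp6ap2. A match says only that these letters stand in these 300 bases.

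The tallest region stood at Atp6ap2, the gene of the prorenin receptor, a partner protein of the proton pump that acidifies lysosomes. Its 3 summit probes had Flag-IP signals of 5310, 15504 and 15820, against input signals of 341, 482 and 526. Their log2 ratios were 3.89, 4.94 and 4.84, so all 3 were high and the window stood at 4.84. The region covered 8 probes over 1195 bp at chrX:11744186-11745380 in the coordinates of the array files, for which neither the labels nor the file headers name a genome build. Rtn4, which encodes the reticulon known as Nogo, had the next highest window, at 4.10. Its Flag-IP signals were 27258, 31155 and 36666, against input signals of 13168, 1534 and 2036. Only 2 of its summit probes were high, with log2 ratios of 4.28 and 4.10, while the first, which was bright in both channels, was at 0.98. Where windows were equally high, the first by position was taken as the summit. The next probe at Rtn4 was at 3.985, and with the 2 high ones it formed a window of the same height. Enkd1, a gene for a microtubule-binding protein of cilia, showed the same shape, with probes at 0.60, 4.44 and 3.70 and the next at 3.537. Zfp317, a zinc finger gene, had probes at 0.20, 3.44 and 4.01 and the next at 2.212. In all 3 genes, the equally high window thus held 3 probes at 2 or more.

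Arid1a encodes a DNA-binding subunit of the SWI/SNF chromatin remodeller, and its region was unusual among the tallest in lying far from the annotated start, at -3837 bp (negative distances are upstream). Its summit probes were at 3.41, 2.83 and 3.88, all above the threshold. Akr1e1, an aldo-keto reductase gene, had probes at 1.29, 3.39 and 4.09 around 38 bp. Coq7 encodes the hydroxylase of ubiquinone synthesis, and its probes were at 3.38, 2.20 and 3.34 around 116 bp. Os9 encodes a lectin that hands misfolded glycoproteins to degradation in the endoplasmic reticulum. Its probes were at 2.32, 4.65 and 3.18, and the first was again bright in both channels, with a Flag-IP signal of 111468 against an input signal of 21308. Tmem97, the gene of the sigma-2 receptor, had probes at 1.89, 4.44 and 3.16 around -121 bp.

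Astl, an egg protease gene, was an exception in signal quality. Of its 3 summit probes, 2 were flagged by the scanner software as well above background in both channels, and its height of 3.34 became 1.89 when only such probes were used. With limma's normexp background correction it was 0.91. The other 19 of the 20 highest regions stayed at 2 or more under normexp, and all 20 stayed at 2 or more when the dependence of the ratio on brightness was removed, with heights from 2.32 to 4.32.

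**Figure D1:**
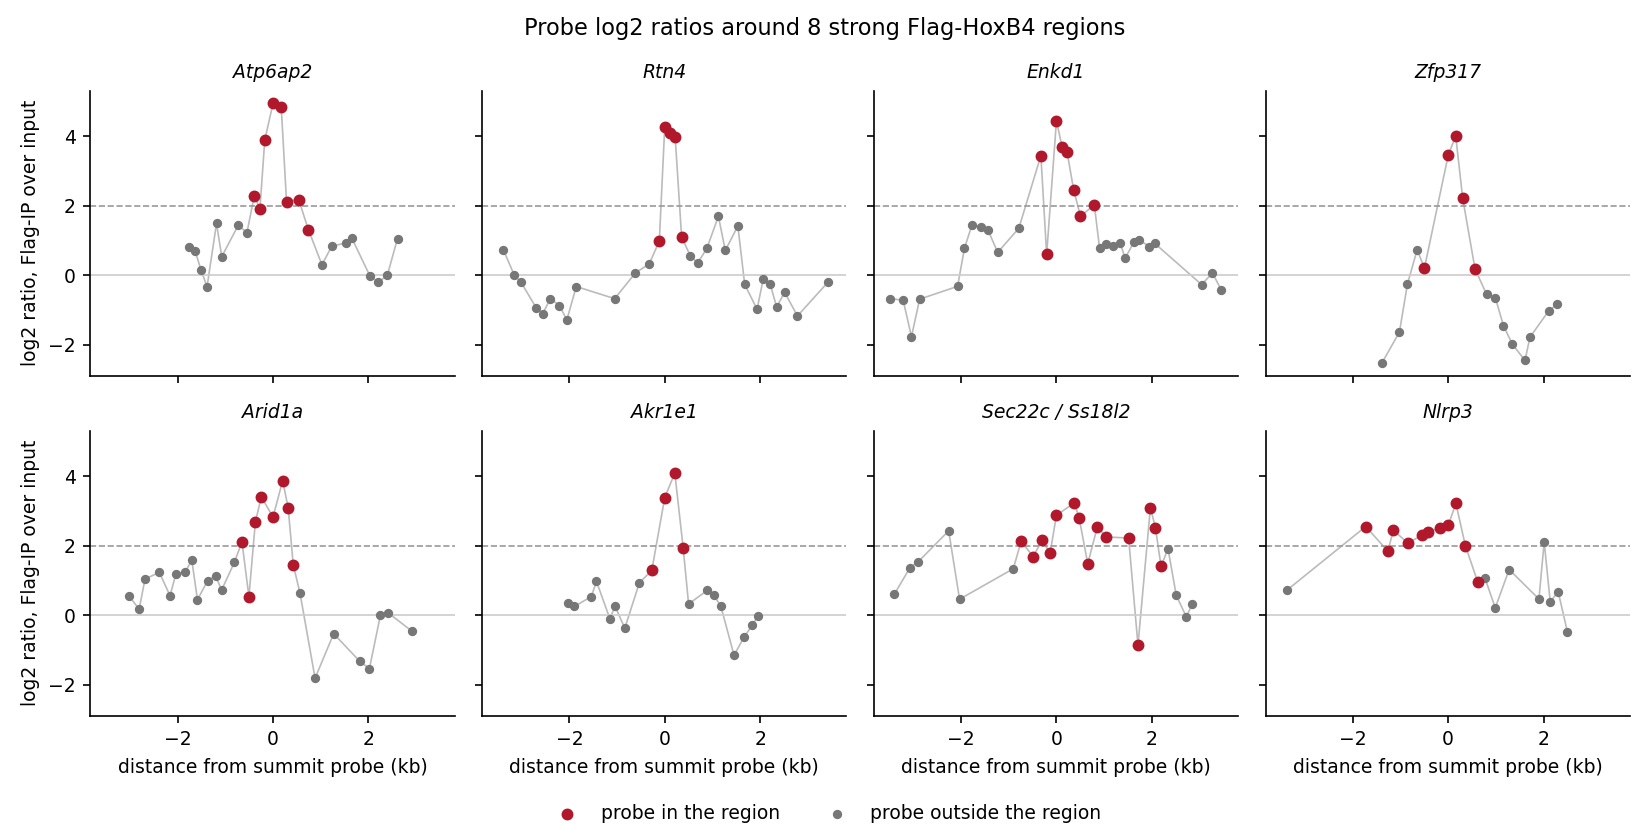
Log2 ratio of Flag-IP over input at each probe (vertical axis) against distance from the summit probe in kb (horizontal axis), for the 6 highest regions and the 2 with the most windows. Red points lie in the strong region and grey points outside it, and the dashed line is the threshold of 2. The peaks at Atp6ap2, Rtn4 and Zfp317 are narrower than those at Sec22c / Ss18l2 and Nlrp3.

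Several of the tallest regions served a pair of genes. The window of 3.18 between Supt7l, a subunit of the SAGA coactivator, and Slc4a1ap lay at -94 bp from the first start and -243 bp from the second. The window of 3.08 between Alg3, a mannosyltransferase of glycan assembly, and Eef1akmt4, a methyltransferase of elongation factor 1, lay at -688 bp and -168 bp. A region at Wdcp and Fkbp1b had a window of 3.12, at 54 bp from the Wdcp start. The remaining regions of the 20 highest stood at Gosr1 (3.11), a Golgi SNARE gene, 1110038F14Rik (3.09), Rab3gap1 (3.05), Otud6b (3.02), Ppm1k (2.95), Clec4d (2.90) and Pnpla1 (2.88). Rab3gap1 encodes a regulator of Rab3, Otud6b a deubiquitinase, Ppm1k a mitochondrial phosphatase, Clec4d a myeloid lectin and Pnpla1 a lipid enzyme of skin. Clec4d at -1756 bp and Pnpla1 at -2167 bp were, with Arid1a and Astl at 2814 bp, the members of the 20 whose summit lay over 1000 bp from a start.

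Most regions were far lower than these. The median height was 2.19 and the upper quartile 2.40, with 83 of the 465 regions at 2.5 or more, 17 at 3 or more and 2 at 4 or more. The 5 regions just inside the threshold were Zik1 and St6galnac4 (2.0037 each), Grb2 (2.0036), Gcnt2 (2.0012) and Mettl22 (2.0006). The 5 just outside were Arhgef4 (1.9997), Sort1 (1.9987), Idh1 with Pikfyve (1.9985), Psd4 (1.9984) and 0610009B22Rik (1.9979), though Idh1 and Psd4 had other strong windows. These values lay far closer together than the lowest and highest summit probe of a region typically did, by a median of 1.17. In 68 regions, or 14.6%, all 3 summit probes were at 2 or more. The lowest summit probe was under 1 in 127 regions and under 0 in 8. These counts and the median range of 1.17 used the first by position of equally high windows. Rtn4, Enkd1 and Zfp317 were thus not among the 68. Each had an equally high window with all 3 probes at 2 or more. How many other regions had such ties was not counted.

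**Figure D2:**
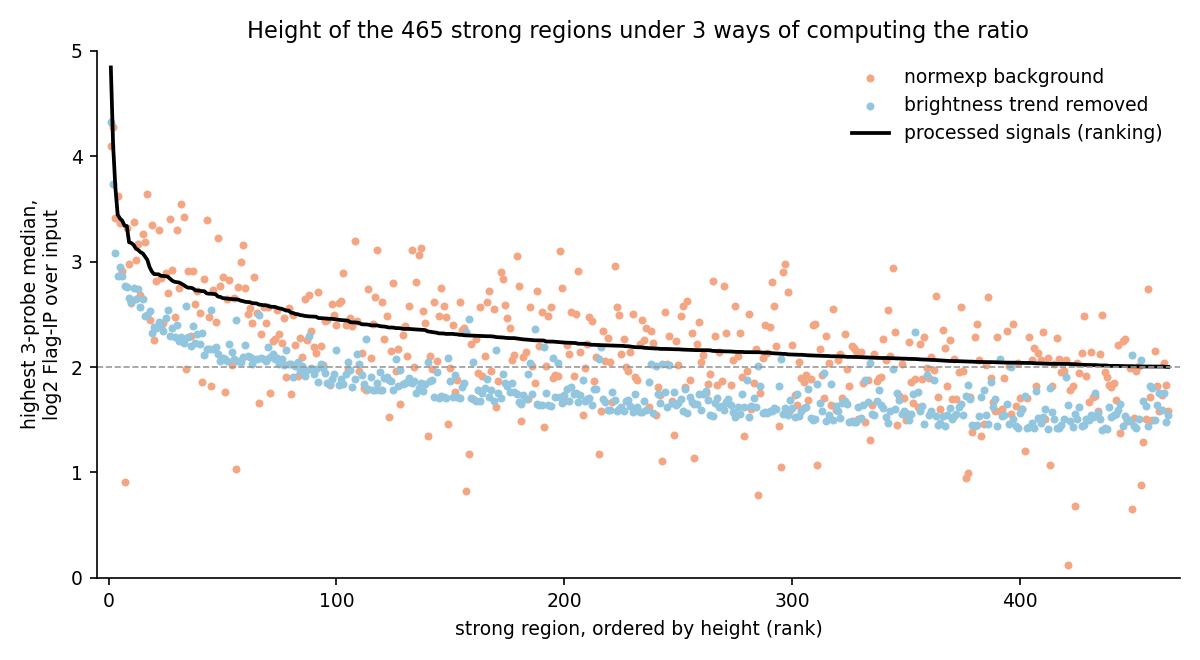
Highest window of each of the 465 strong regions (vertical axis, log2 Flag-IP over input) against rank (horizontal axis). The black line is the ratio of processed signals that chose the regions, orange points the same regions under normexp and blue points after removal of the brightness trend, and at lower ranks most blue points fall below the dashed threshold of 2.

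The size of the set depended on how the ratio was computed. Under normexp, 285 of the 465 regions, or 61.3%, still held a window at 2 or more. After removal of the brightness trend 116 did, or 24.9%, although every region kept a height of at least 1.41. Under normexp, the trend removal and the restriction to probes well above background together, 79 regions stayed, or 17.0%. They included all of the 21 highest regions apart from Astl. Windows at -2 or less, which were depleted in the pulldown, numbered 5538, or 1.3% of all windows, and touched 1943 genes, or 11.7%. They thus outnumbered strong windows, but under normexp there were 1691 windows at 2 or more against 45 at -2 or less, and after trend removal 341 against 226. What share of strong windows arose from noise is therefore not known.

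Strong regions were bright in the Flag-IP channel rather than dim in the input. The median log2 Flag-IP signal was 12.27 at strong summits, against 9.63 over all windows, and 78.9% of strong summits had a Flag-IP signal in the top 5% of windows. The median log2 input signal was 10.07 at strong summits, against 9.56 over all windows. Only 20.6% of strong summits had an input signal below the median of all windows. All 3 summit probes were well above background in 449 regions, or 96.6%, against 88.4% of all windows. Depleted summits were in turn dim in Flag-IP rather than bright in the input. Their median log2 Flag-IP signal was 6.58, and 2.13% of them had an input signal above the upper quartile of all windows. They lay closer to background than strong summits, with all 3 probes well above it in 17.2%. The Flag-IP level is part of the ratio that chose the regions, so these values describe them and test nothing.

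**Figure D3:**
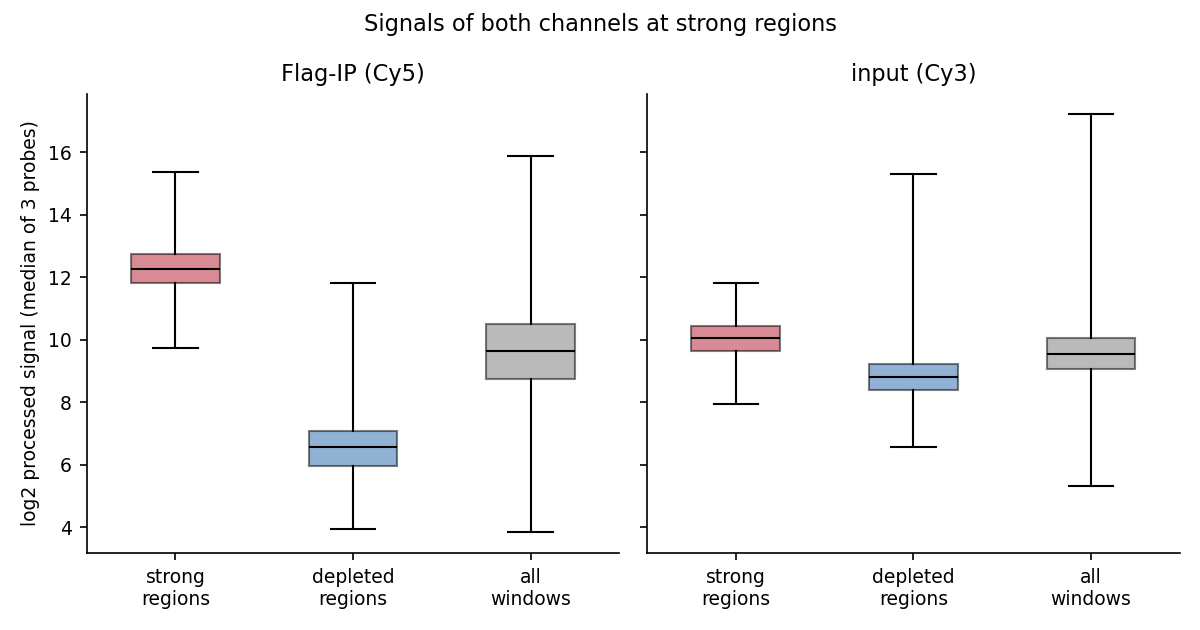
Log2 processed signal, as the median of 3 probes, in the Flag-IP channel (left) and the input channel (right) for strong regions, depleted regions at -2 or less and all windows. Boxes span the quartiles, the line is the median and whiskers reach the lowest and highest value, and strong regions have a median of 12.27 in Flag-IP and 10.07 in input.

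Signal at strong regions was compact. The median region spanned 623 bp and 4 probes, and 99 regions consisted of 1 window, 223 of 2 and 143 of 3 or more. Outside the 3 summit probes, the median log2 ratio of single probes was 1.23 at 250 to 500 bp from the summit probe. It was 0.60 at 750 to 1000 bp and 0.19 at 2000 to 3000 bp, against 0.03 as the median of all windows. The broadest region lay between Sec22c, a vesicle transport gene, and Ss18l2, at chr9:121556625-121559620 in the array coordinates. It covered 2996 bp and 12 windows over 15 probes, of which 10 were at 2 or more, with a height of 2.88. The region with the next most windows, 9 over 2407 bp, lay upstream of Nlrp3, the gene of the inflammasome sensor, with 9 of 11 probes at 2 or more and a height of 2.59. No region was tied to more than 2 genes.

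Gene starts held more strong regions than their share of the array. The summit lay within 500 bp of an annotated start in 246 of the 459 regions with a gene, or 53.6%, against 18.03% of all windows. The highest window of a gene is itself often near the start, within 500 bp in 36.2% of all genes, so shares were also taken by gene. The highest window of a gene lay within 500 bp of its start in 52.1% of genes with a strong region, against 35.7% of other genes. Among genes grouped by height, that share was 31.2% for heights under 0.5, 33.3% from 0.5 to 1, 37.6% from 1 to 1.5 and 46.8% from 1.5 to 2. It thus increased with height below the threshold as well. Strong summits were about evenly placed around the start, with 50.3% upstream and a median distance of -2 bp. Of depleted summits, 7.02% lay within 500 bp. The share for strong regions stayed between 51.1% and 57.9% under the other ways of computing the ratio and with 5 probes per window. It differed with the threshold, at 46.3% for 1.5, 68.7% for 2.5 and 88.2%, or 15 of 17 regions, for 3.

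**Figure D4:**
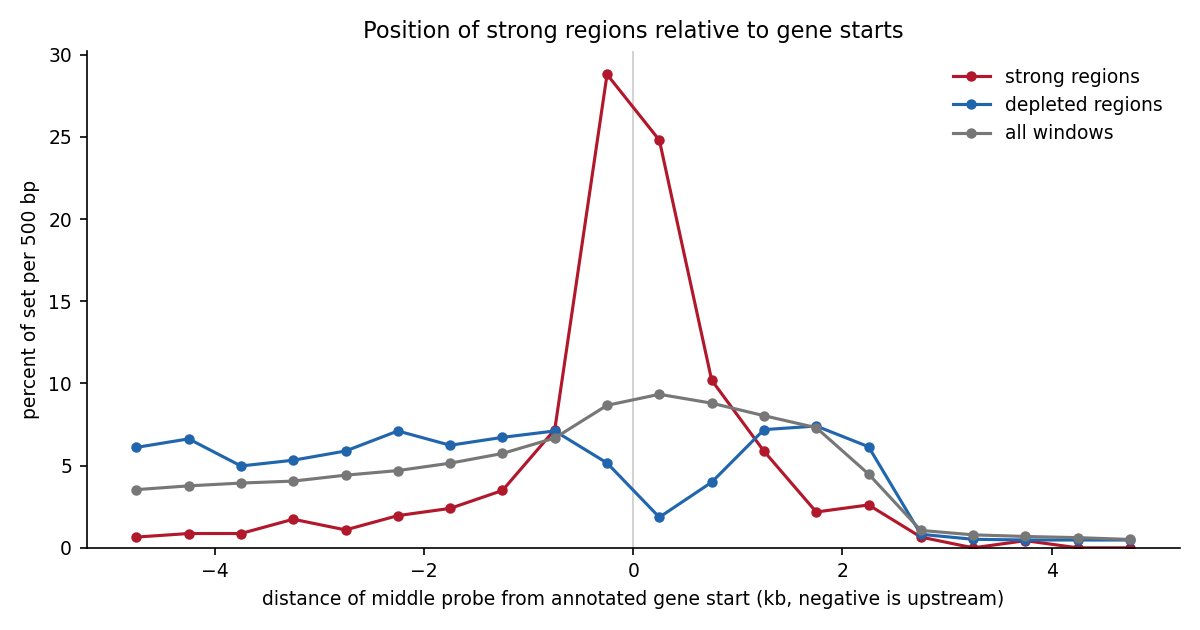
Share of strong regions, depleted regions and all windows (vertical axis, percent per 500 bp) by distance of the middle probe from the annotated gene start (horizontal axis, kb). Of strong regions, 28.8% had their summit in the 500 bp before the start and 24.8% in the 500 bp after it, against 5.16% and 1.86% of depleted regions.

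Of the 465 regions, 380 were tied to 1 gene, 79 to 2 genes and 6 to none. In 45 regions, or 9.68%, the summit lay in a stretch annotated as a promoter shared by genes on opposite strands, against 3.41% of all windows. The highest window was so placed in 6.38% of all genes, but that share counts genes, so 1 shared window can count for both of its genes. In 13 of these 45 the summit was within 500 bp of both starts. Among them Ccdc115 and Imp4, a factor of ribosomal RNA processing, shared a window of 2.72 at -159 bp and -68 bp. Such a window cannot be assigned to 1 gene of the pair. Conversely, 12 genes had 2 regions each. At Rpl13a the pair stood at 2.16 and 2.27, 1114 bp apart, and at Lyl1 at 2.01 and 2.12, 3197 bp apart. Chchd2 and Zbed5 shared both of theirs.

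Regions were found on every nuclear chromosome. The share of windows at 2 or more ran between 0.127% on chromosome 16 and 0.416% on chromosome X, leaving out the small set of 179 windows on chromosome Y. Chromosome X carried 26 regions. Array 1 held 267 regions, with 0.282% of its windows strong, and array 2 held 198, with 0.213%. The median height was 2.19 on array 1 and 2.18 on array 2. Chromosome 9 is split between the arrays and every other chromosome is on 1 of them, so array and chromosome can hardly be told apart.

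The families below were counted by the start of the gene symbol or by a list of genes, and each count is to be read against the 3.16% of all genes with a strong region and their median highest window of 0.91. Cytosolic ribosomal proteins, the building blocks of the ribosome, had a strong region in 9 of 84 genes, or 10.7%, and their median highest window was 1.42. Rps4x (2.65, at -575 bp), Rpl39 (2.59, at -150 bp), Rpl36a (2.40, at -374 bp) and Rpl13a (2.27, at -151 bp) were the tallest. The first 3 of these are on chromosome X. The other 5 lay between 2.01 and 2.17, led by Rpl7a and Rpl12. Of the 9, 3 shared their region with another gene, namely Rpl36a with Btk, Rpl7a with Med22 of the Mediator complex, and Rpl36, whose summit lay at -3335 bp, with Micos13 at -327 bp. Translation initiation factors had 4 of 51, or 7.84% (Eif5b, Eif1ad, Eif2b4 and Eif4a2), of which Eif4a2 alone had a region of its own. Among tRNA ligases 3 of 33 were counted, or 9.09% (Rars2, Yars2 and Farsa). The window counted for Farsa lay at -9701 bp, and at -391 bp from Calr, while Rars2 shared its region with Orc3. Mitochondrial ribosomal proteins had 3 of 75, or 4.0%, of which Mrpl55 stood at 2.72.

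Some families of transcription and RNA processing had members and others had none. None of 18 TAF subunits, 10 SR and 9 SF3 splicing factors or 12 Lsm proteins was strong. Nor was any of 8 exosome subunits or 17 Nop and Utp nucleolar proteins. RNA polymerase subunits had 1 of 23, or 4.35%, and snRNP proteins 1 of 10. General transcription factor subunits had 3 of 22, with Gtf2e1 at 2.28 and a summit at -49 bp, shared with Rabl3 at -75 bp. Of 49 DEAD and DEAH box helicases, which unwind RNA, 3 were strong, with Ddx39a at 2.67 and Ddx54 at 2.65. Ddx54 (at -408 bp) shared its window with Rita1, which was nearer at -152 bp, and Dhx38 shared its region with Txnl4b. Hnrnpc (2.53) and Hnrnph2 (2.04) were the 2 of 17 hnRNP genes. Hnrnpc shared its region with Rpgrip1, and Hnrnph2 (at -209 bp) with Gla, which was nearer at -121 bp. Mediator, which bridges factors and RNA polymerase, had 2 of 28 (Med28, and Med22, which shared its region with Rpl7a). Numbered Zfp zinc finger genes had 12 of 257, or 4.67%, led by Zfp317 and by Zfp143 (2.65), a factor of small nuclear RNA genes. Histone genes had 6 of 61, or 9.84%, with H2bc18 at 2.75 and H1f2 at 2.65. Histone genes lie close together and H2ac13 and H2bc13 shared a window, so these 6 are not separate sites.

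In energy metabolism, 3 of 14 glycolytic enzyme genes were strong. These were Gapdh (2.40, at 1321 bp), Eno1 (2.38, at 617 bp) and Pgam1 (2.23, at 2012 bp), and all 3 summits lay inside the gene. The vacuolar proton pump, which acidifies lysosomes and endosomes, had 3 of 24, with Atp6v1f at 2.46 and Atp6v0d1 at 2.40 beside Atp6ap2. NADH dehydrogenase subunits and assembly factors had 2 of 41 (Ndufaf3 at 2.70 and Ndufs8 at 2.36), and ATP synthase 1 of 17 (Atp5l at 2.75). Ndufaf3 shared its region with Dalrd3. Of 17 genes of cholesterol synthesis and its control, Insig1 (2.65) and Cyp51 (2.15) were strong. Coq7 was the single member among 10 ubiquinone synthesis genes. None of 26 cytochrome oxidase subunit and assembly genes and none of 8 cytochrome bc1 subunit genes was strong.

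Cell division genes included both genes of the Bub spindle checkpoint kinase family that were measured, Bub1 (2.14) and Bub1b (2.01). Cdk9 (2.24), the kinase that releases paused polymerase, and Cdk5 (2.03) were 2 of 17 cyclin-dependent kinases, or 11.8%. Both shared their region with another gene, Cdk9 with Sh2d3c and Cdk5 with Slc4a2. Cdc25a (2.09) was 1 of 27 Cdc genes, or 3.7%, and Ccng1 (2.05) 1 of 23 cyclins, or 4.35%. Other mitotic genes, chosen after their values were seen, were Zwint (2.86, at 62 bp) and Mad2l1 (2.78, at 57 bp), which act at the kinetochore, and Incenp (2.55, at -40 bp), the scaffold of the Aurora B complex. Anapc15 (2.88), a subunit of the anaphase-promoting complex, had rank 22 of all regions. None of 10 Mcm genes was strong, though their median highest window was 1.41. Kinesins had 1 of 29, or 3.45%, and none of 21 tubulin genes was strong.

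Of 26 blood transcription factor genes measured, 3 were strong, or 11.5%, and the median highest window of the list was 1.32. Hhex (2.14, at 863 bp) is a homeobox factor needed for blood and liver, Lyl1 (2.12, at 2156 bp) a bHLH factor of early progenitors and Cebpa (2.01, at -593 bp) a factor of the granulocyte lineage. All 3 stood close to the threshold. None of 40 Hox, Pbx and Meis genes had a strong region, with a median highest window of 1.02. Immune and signalling genes with a strong region, named after their values were seen, included Elf4 (2.70, at -12 bp), an Ets factor, Tgfb1 (2.69, at 2576 bp), Btk (2.40, at -2198 bp), the kinase of B cell receptor signalling, and Cd33 (2.29, at -15 bp), a myeloid lectin. The window of Btk is the one also counted for Rpl36a, its neighbour. Il2rg (2.30, at 616 bp), the common cytokine receptor chain, and Blnk (2.16, at -3876 bp), a B cell adaptor, were further members.

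Slc names gave 5 of 345, or 1.45%, and 1 of these 5, Slc4a1ap, is an adaptor and no transporter. Tmem names gave 6 of 184, or 3.26%, a share near that of all genes. No strong region was tied to any of 846 olfactory receptor genes, whose median highest window was -0.09 and of which 415 had a depleted window. Vomeronasal receptors (0 of 105), keratins (0 of 79) and beta-defensins (0 of 34) had none either. F-box names gave 4 of 54, or 7.41%, heat shock names 2 of 28, or 7.14%, proteasome subunits 2 of 47, or 4.26%, and Rab names 2 of 61, or 3.28%, with Rab3gap1 among the last. The single DNA repair gene of 36 was Parp1 (2.16), and none of 16 apoptosis genes was strong. Depletion and strong signal seldom met in 1 gene, with a depleted window in 17 of the 526 strong genes, or 3.23%, against 11.9% of other genes. Gosr1 was the tallest of those 17, with a lowest window of -2.05.

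A single RefSeq promoter of 300 bases, from 250 before to 50 after the start, was matched for 363 of 526 strong genes and for 10775 of all measured genes. Of the strong ones, 194 had their highest window within 500 bp of the start. They are set beside the 4070 genes of any height whose highest window was that near, a set that contains them. An observed to expected CpG ratio of 0.6 or more was found in 79.4% of the 194 promoters, against 63.0% of the 4070 and 55.4% of all 10775. Within the 4070, the share was 76.6% at heights from 1.5 to 2, 73.9% from 1 to 1.5, 62.3% from 0.5 to 1 and 32.2% under 0.5. Strong promoters were thus close to the groups just below the threshold. The median G and C content was 56.7% in the 194 and 58.0% in the 4070.

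The CCAAT box, searched as CCAAT on both strands, was present in 56.7% of the 194 promoters, against 42.5% of the 4070 and 39.4% of all. The median position was -87 in the strong promoters and -86 in the 4070, and 43.4% and 41.2% of the boxes lay from -120 to -40. TAAT on either strand was present in 63.9%, against 52.0% and 50.1%. It was as frequent, at 63.3%, in the 777 promoters of genes with a highest window under 0.5 within 500 bp of the start. Both words were found in 35.6% of strong promoters, against 22.6% of the 4070, and neither in 14.9%, against 28.1%. The Ets sequence CCGGAAG, which contains the shorter core GGAAG, was held by 26.8% against 19.1% of the 4070. AAGATGGC, bound by YY1, was held by 9.28% against 5.21%. CACGTG, an E-box that is also counted under CANNTG, was held by 13.9%, or 27 promoters, against 9.02%. In genes just below the threshold, at heights from 1.5 to 2 within 500 bp, the shares were 27.2%, 7.27% and 8.37%. CCGGAAG was thus no more frequent in strong promoters than in that group. GGAAG alone was held by 79.4% against 76.6%, and the GC box GGGCGG by 56.2% against 54.4%.

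Longer sites of Hox complexes had no higher share in strong promoters. TGATTNAT, a composite of Hox and Pbx, was found in 3 of 194 strong promoters, or 1.55%, against 2.26% of the 4070. TGACAG, the site of Meis, was found in 16.5% against 17.8%, AGATAA, the site of Gata factors, in 7.73% against 8.13%, and CANNTG in 60.3% against 65.1%. The words GCATGCGC, ACTACAATT, CTCGCGAG, TGACGTCA and TGACTCA were each held by 5.15% or fewer of the strong promoters. Each of these 5 words was found in at most 10 strong promoters.

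The shares of TAAT and CCAAT were then followed along the height of the gene, in groups chosen after the data had been seen. Only genes whose highest window lay within 500 bp of the start were included. Over all promoters TAAT was held by 63.3% at heights under 0.5, 46.2% from 0.5 to 1, 48.3% from 1 to 1.5, 52.9% from 1.5 to 2 and 63.9% at 2 or more, so the lowest and highest groups had nearly the same share. CCAAT was held by 39.8%, 37.9%, 43.9%, 47.7% and 56.7%. In promoters with a CpG ratio of 0.6 or more, TAAT was held by 31.2%, 37.1%, 44.8%, 49.5% and 62.3% along the same groups, over 250, 784, 892, 485 and 154 promoters. CCAAT was held by 35.6%, 37.0%, 45.5%, 47.2% and 57.1% of the same groups. The fused word TAATTGG, seen in both copies at Ppm1k, was held by 0.4%, 1.02%, 2.47%, 3.92% and 5.84%. These shares rest on few promoters, 1, 8, 22, 19 and 9. Of 2 rearrangements of its letters, TGGTTAA was held by 1.2% in the lowest group and 1.3% in the highest, and ATGATTG by 1.6% and 2.6%. The median G and C content of promoters with a CpG ratio of 0.6 or more decreased along the same groups, at 64.7%, 63.0%, 60.7%, 60.0% and 58.0%.

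Other words of the same letter types also differed with height, by fewer percentage points, though TAACC by a larger ratio than CCAAT. Between heights under 0.5 and heights of 2 or more, AAAT was held by 51.2% and 68.2%, TAAA by 54.8% and 71.4%, AATA by 38.0% and 54.5% and TTAT by 34.0% and 54.5%, where TAAT had 31.2% and 62.3%. Among rearrangements of the letters of the CCAAT box, the word TAACC was held by 16.0% and 33.1%, ACTCA by 32.8% and 40.9%, CATAC by 8.8% and 13.6%, ACCAT by 23.6% and 25.3% and CACAT by 22.8% and 19.5%. In promoters with a CpG ratio under 0.6 the order was different. There TAAT was held by 78.6%, 61.3%, 58.1%, 64.2% and 70.0% along the same groups, the last being 40 promoters, and CCAAT by 41.7%, 39.4%, 39.4%, 49.3% and 55.0%. The share of TAAT thus increased with height along all groups of the CpG-rich promoters. In the CpG-poor ones it increased only over the upper groups, from 58.1% to 70.0%, and was highest in the lowest group. The part of base composition in these shares was not tested.

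**Figure D5:**
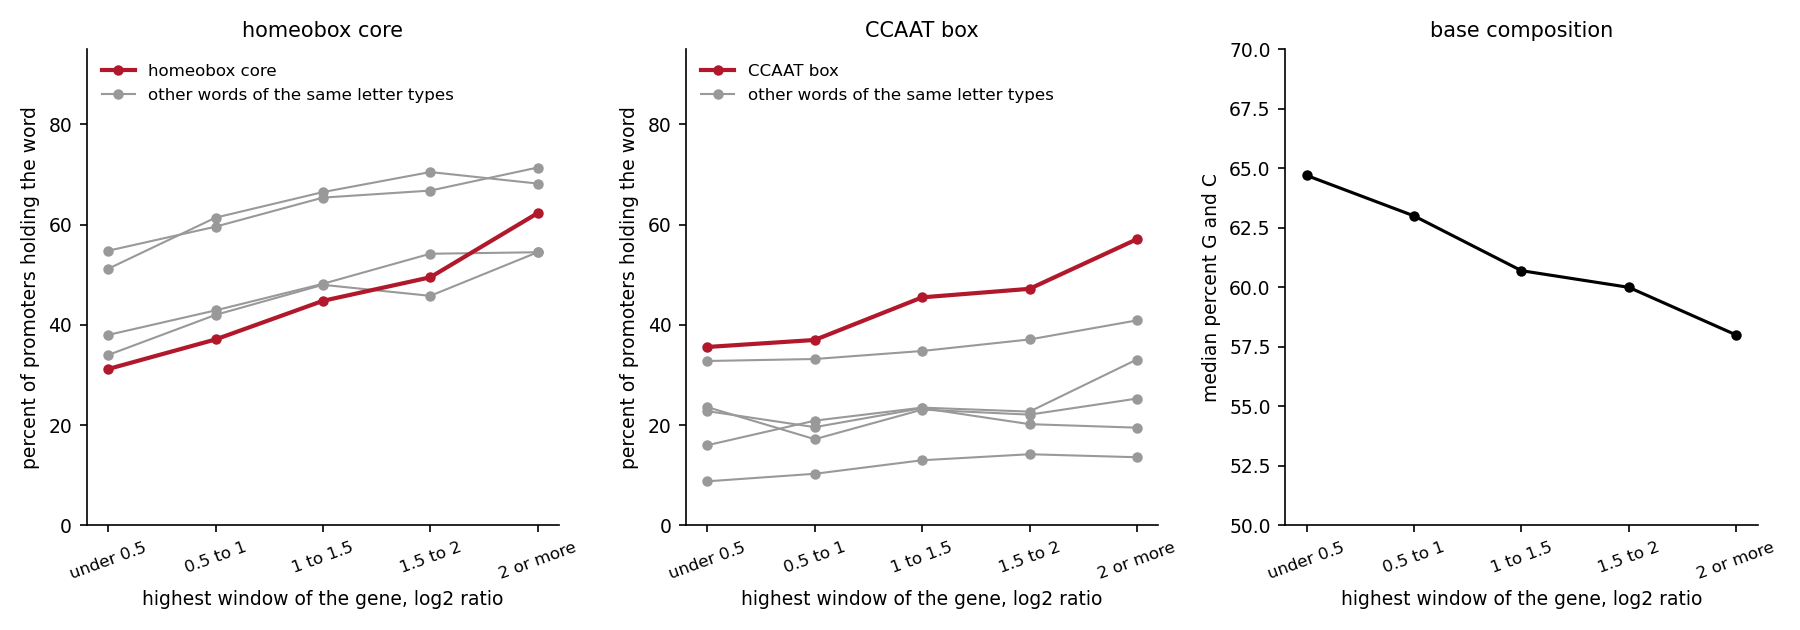
Share of CpG-rich promoters that hold the homeobox core (left, red), the CCAAT box (middle, red) or other words made of the same kinds of letters (grey), and the median G and C content (right), by height of the highest window of the gene (horizontal axis, log2 ratio). Only genes whose highest window lay within 500 bp of the start are included. Both red lines climb to their highest share at strong regions, 62.3% and 57.1%, while G and C content declines to 58.0%. Most grey lines also have their highest share there.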

How the data were processed

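Flag-HoxB4 binding was measured by ChIP-chip on 2 Agilent promoter arrays with different probe sets. Processed signal intensities and a log10 ratio per probe were deposited, made with Agilent Feature Extraction 10.1.1.1 per the file headers, which record background subtraction and dye normalization. The authors' value table, on a log10 scale, held the same ratios. Neither the labels nor the file headers name the build behind the probe positions.

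Outlier spots, control spots and 738 probes without a position were left out, leaving 473585 probes. The log2 ratio of red (Cy5, Flag-IP) over green (Cy3, input) processed intensity was centred on each array's median, 0.06 and 0.07 before centring. Of the probes, 95.3% on each array were well above background, and none was saturated. Gene names and distances came from the array annotation, with older symbols updated through RefSeq (GRCm38.p6), which also supplied the promoters. The members, lists and motifs were chosen with earlier results of these data known. Genes named were the 20 highest regions, those with most windows, length or genes, 5 on each side of the threshold, up to 6 strong members of each list and up to 20 regions that passed every alternative ratio. Other genes were named after their values were seen, among them the immune and mitotic genes said to be so, genes sharing a region with a list member, and Rpl36. The histone list was redrawn after older symbols matched no gene. Windows were computed in Python 3.11.15 with pandas 2.3.3 and numpy 2.4.6, and checked on simulated data. Normexp (offset 50) and the loess brightness trend (span 0.3) used limma 3.58.1 in R 4.3.3. With 1 array per region, the number of arrays limits the precision. Deposited expression values, of unknown scale and without gene names, were not used.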

Additional observations from a re-analysis of the deposited data

How the results depend on the processing

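The 465 regions and 526 genes became 718 regions and 813 genes with normexp, 178 and 197 with the brightness trend removed, and 166 and 195 with 5 probes per window. They were 2340 and 2427 at a log2 ratio of 1.5, 84 and 98 at 2.5, and 17 and 20 at 3. The causes were not tested, other than that a stricter threshold or longer window keeps fewer by construction. Both counts stayed within 1.5 times with probes well above background, no centring and a gap of 500 bp. So did the 366 regions of 2 or more windows. Both counts were unchanged under the deposited log10 ratios, the deposited value table and windows within each array. The deposited values are the same ratios, and only chromosome 9 is split between the arrays, so these settings could hardly differ. The share of TAAT in strong promoters, 63.9%, was 55.5% at a threshold of 1.5, and the cause was not tested. The other motif shares stayed within their 95% exact binomial interval, which covers counting error only. Among them CACGTG went from 13.9% to 9.67% at a threshold of 1.5. Of 120 heights recomputed for the 20 highest regions, 18 moved by more than the SD of the 3 summit probes. The 120 include 20 heights each from the deposited log10 ratios and the deposited value table. Those are the same ratios and could not move. The SD used the first by position of equally high windows, and a low probe in it makes a move harder to count. None changed sign, which regions picked for their height could hardly do. No paired analysis was possible because each region has 1 array and no replicate. The planned comparison with expression was not run, since probe sets could not be joined with genes.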
